A study of Mus musculus with 10 samples.

Results

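The IL-12 family of cytokine subunits was examined gene by gene: Il12a, Il12b, Il23a, Il27 and Ebi3, the 5 rows of the deposited expression table that carry these symbols, out of 34745 genes. Polyadenylated mRNA was sequenced from peritoneal lavage cells, a mixture of leukocytes and lining cells rinsed from the belly, of mice with sepsis caused by cecal ligation and puncture, a puncture of the gut that releases its bacteria. The 10 libraries fall into 5 labelled AX and 5 labelled NC. The study set amlexanox against vehicle in such mice; AX is taken here to mean the amlexanox-treated samples and NC the vehicle-treated ones, since neither code is spelled out. All the animals compared had undergone the puncture, and no unoperated animals are among these samples. The sources used here give no strain, sex, age, dose, route or time of sampling, and do not say whether each library came from a separate animal. Libraries held 10221170 to 13806885 counts each. Amlexanox is a small molecule that inhibits the kinases TBK1 and IKKε.

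The cytokines of this family are heterodimers that pair a helical alpha chain with a beta chain related to soluble cytokine receptors. IL-12 joins p35, encoded by Il12a, to p40, encoded by Il12b, and drives interferon-gamma production by T and natural killer cells. IL-23 joins p19, encoded by Il23a, to the same p40 and sustains cells that make IL-17 and IL-22. IL-27 joins p28, encoded by Il27, to the EBI3 chain, and has been linked to IL-10 production by T cells. EBI3 with p35 has been described as IL-35. Macrophages and dendritic cells sensing bacteria are the usual sources of these chains, and a chain can be transcribed in excess of its partner.

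The beta chains lay at opposite ends of the range, Ebi3 being the most abundant and Il12b the least abundant subunit mRNA in every library, and the start regions of their genes are therefore shown. The sequences are RefSeq's on build GRCm38.p6, each running from 250 bases before to 50 bases after the annotated start on the plus strand, at chr17:55952373-55952672 for Ebi3 and chr11:44399813-44400112 for Il12b; Il12a also has entries, and so 3 of the 5 members were matched. Capitals mark matches, on either strand, to the NF-κB consensus or to the TATA-like motif TATANAA, the only searched motifs found in these 2 windows.
Ebi3: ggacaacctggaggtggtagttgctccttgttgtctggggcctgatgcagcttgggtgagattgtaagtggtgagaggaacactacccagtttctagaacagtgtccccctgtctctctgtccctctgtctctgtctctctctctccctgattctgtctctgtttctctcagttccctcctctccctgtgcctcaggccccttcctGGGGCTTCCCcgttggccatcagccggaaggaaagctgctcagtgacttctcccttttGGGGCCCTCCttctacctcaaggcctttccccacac
Il12b: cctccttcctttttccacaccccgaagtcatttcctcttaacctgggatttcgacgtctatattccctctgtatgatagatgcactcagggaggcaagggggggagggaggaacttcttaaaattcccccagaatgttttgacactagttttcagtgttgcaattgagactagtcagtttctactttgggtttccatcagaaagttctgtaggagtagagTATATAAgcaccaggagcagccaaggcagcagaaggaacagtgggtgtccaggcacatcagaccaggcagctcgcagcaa
The Ebi3 window held the NF-κB consensus at positions -44 and 15 counted from the start, the first of them matching on both strands, and 8.46% of the 32851 windows of the same length held at least one such match. The Il12b window held TATATAA at position -30, a motif found in 11.3% of windows. Neither window held the AP-1 motif TGANTCA (7.81% of windows), the C/EBP motif TTGCNNAA (10.8%) or the interferon-stimulated response element (GAAANN followed by GAAA, 3.44%). These are matches of letters to exact patterns, and no factor binding was measured. A site that departs from its pattern in any letter is not marked, so a window without a match may still hold a site. Whether these sequences bear on the levels was not tested.

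Ebi3 mRNA was abundant throughout, with 1060 to 2434 counts per library. Ebi3 (ENSMUSG00000003206) lies on chromosome 17 from 55952623 to 55957021 on the plus strand of mm10. Its counts scaled to library size (CPM) were 110.3, 150.1, 111, 110.1 and 123 in AX 6 to AX 10, against 106, 156, 169.7, 152 and 158 in NC 1 to NC 5. The groups overlapped: 4 of the 5 NC libraries lay above every AX library, and NC 1 lay below every AX library. Ebi3 averaged 121 ± 17.3 CPM in AX against 148 ± 24.4 CPM in NC (SD, n = 5 each). The log2 fold change, AX over NC, was -0.29 ± 0.17 (SE), with a 95% interval from -0.67 to 0.08, and it did not pass (adjusted p = 0.9999, edgeR's quasi-likelihood test). The exact two-sided permutation p of its mean CPM was 0.0952, where the smallest p that 5 against 5 allow is 0.00794. Ebi3 was also the steadiest member, with a coefficient of variation over the 10 libraries of 18.3%. An antisense gene on the other strand, Gm16712, overlaps Ebi3 over 2251 bases; its own level was 0.192 to 0.952 CPM. In bulk RNA, fewer cells of a type and less RNA per cell cannot be told apart.

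Il12b mRNA, which encodes the p40 chain that both IL-12 and IL-23 require, was close to absent. Il12b (ENSMUSG00000004296, chromosome 11, 44400063 to 44414033, plus strand) had 10, 0, 4, 0 and 0 counts in AX 6 to AX 10, against 8, 0, 0, 0 and 0 counts in NC 1 to NC 5. The 3 libraries with any count were AX 6, AX 8 and NC 1, at 0.866, 0.417 and 0.690 CPM, with exact 95% Poisson intervals of 0.415 to 1.59, 0.114 to 1.07 and 0.298 to 1.36 CPM. In the other 7 libraries a count of 0 allows up to 0.192 to 0.279 CPM, taken as 3 counts per library. By the exact intervals used for the 3 libraries with counts, these upper limits are 0.236 to 0.343 CPM. Intervals and limits cover counting error only. Il12b therefore did not pass the filter on low counts and has no fold change in the main fit. It averaged 0.257 ± 0.385 CPM in AX against 0.138 ± 0.308 CPM in NC (SD, n = 5 each; exact two-sided permutation p = 0.722), and without AX 6 the difference of the means turned to -0.0337 CPM.

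**Figure D1:**
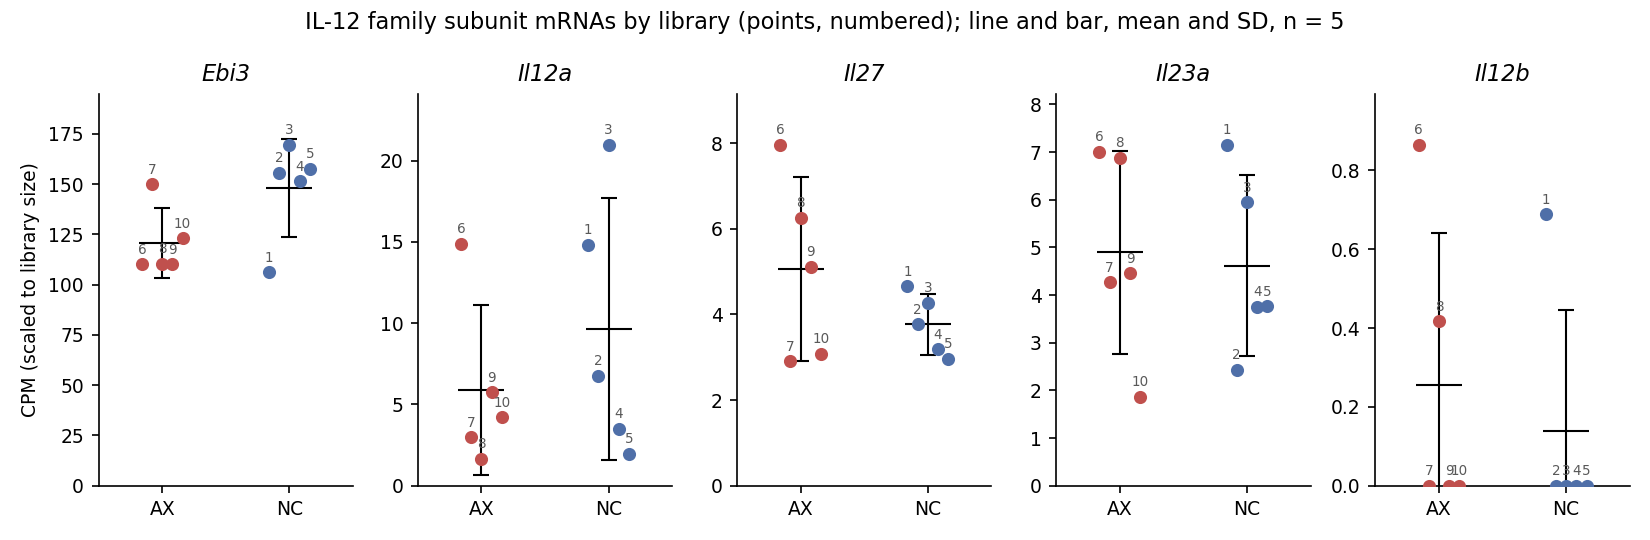
CPM of each subunit mRNA in AX and NC libraries; points are single libraries with their numbers, horizontal lines are means, and bars are the SD over 5 libraries, cut at 0. Each panel has its own axis from 0: Ebi3 lies between 106 and 169.7 CPM, while Il12b has counts in AX 6, AX 8 and NC 1 only.

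Among the alpha chains, Il12a varied most. Il12a (ENSMUSG00000027776, chromosome 3, 68690644 to 68698547, plus strand) stood at 14.9, 2.98, 1.67, 5.77 and 4.21 CPM in AX 6 to AX 10, against 14.8, 6.78, 20.99, 3.51 and 1.97 CPM in NC 1 to NC 5. High values occurred in both groups, in AX 6 and in NC 1 and NC 3, and the highest was 12.6 times the lowest. Il12a averaged 5.90 ± 5.25 CPM in AX against 9.62 ± 8.07 CPM in NC. The log2 fold change was -0.70 ± 0.70 (SE) with a 95% interval from -2.25 to 0.84, which did not pass (adjusted p = 0.9999, edgeR). That value rested on single libraries: it was -0.20 without NC 3 and -1.38 without AX 6. The coefficient of variation over the 10 libraries was 86.4%.

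Il27, which encodes p28, had a higher mean in AX but overlapping groups. Il27 (ENSMUSG00000044701, chromosome 7, 126589010 to 126594941, minus strand) stood at 7.96, 2.90, 6.25, 5.11 and 3.08 CPM in AX 6 to AX 10, against 4.66, 3.77, 4.27, 3.19 and 2.96 CPM in NC 1 to NC 5. AX 6, AX 8 and AX 9 lay above every NC library, while AX 7 lay below them all. The means were 5.06 ± 2.15 CPM in AX against 3.77 ± 0.712 CPM in NC (SD, n = 5 each). The log2 fold change was 0.42 ± 0.32 (SE), 95% interval -0.29 to 1.14 (adjusted p = 0.9999, edgeR), and it was 0.20 without AX 6. The 3' end of Il27 overlaps the last 103 bases of Apobr on the other strand; Apobr stood at 33.9 to 140.3 CPM, and whether counting used strand is unknown, so reads in that overlap cannot be assigned with certainty.

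Il23a, which encodes p19, showed no consistent order of the groups. Il23a (ENSMUSG00000025383, chromosome 10, 128296140 to 128298084, minus strand) stood at 7.01, 4.27, 6.88, 4.46 and 1.86 CPM in AX 6 to AX 10, against 7.16, 2.43, 5.94, 3.76 and 3.77 CPM in NC 1 to NC 5. The 3 highest libraries were AX 6, AX 8 and NC 1, the same 3 in which Il12b was counted. The means were 4.90 ± 2.13 CPM in AX against 4.61 ± 1.90 CPM in NC, and the log2 fold change was 0.09 ± 0.40 (SE), with a 95% interval from -0.80 to 0.98 (adjusted p = 0.9999, edgeR). Its sign turned on leaving out AX 6, AX 8 or NC 2, to -0.08 in each case.

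In all, 4 of the 5 members passed the filter and 0 of these 4 passed an adjusted p of 0.05, beside 0% of the 12264 genes tested. At an unadjusted p under 0.05, 0 of the 4 members and 0.921% of all tested genes (113) were counted, 0.408% higher and 0.514% lower in AX. Evenly spread p-values would put more genes than this under 0.05, so the test may be overly cautious on these libraries. With limma-voom and quality weights the count was 380. The reason was not tested. The groups did not overlap in 0 of the 4 members, beside 0.139% of all tested genes. The widths of the intervals show what could have been missed: they run from 0.629 to 1.06 as a fold for Ebi3, 0.817 to 2.20 for Il27, 0.573 to 1.97 for Il23a and 0.211 to 1.80 for Il12a. The median log2 fold change of the 4 was -0.10, beside 0.02 over all tested genes.

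**Figure D2:**
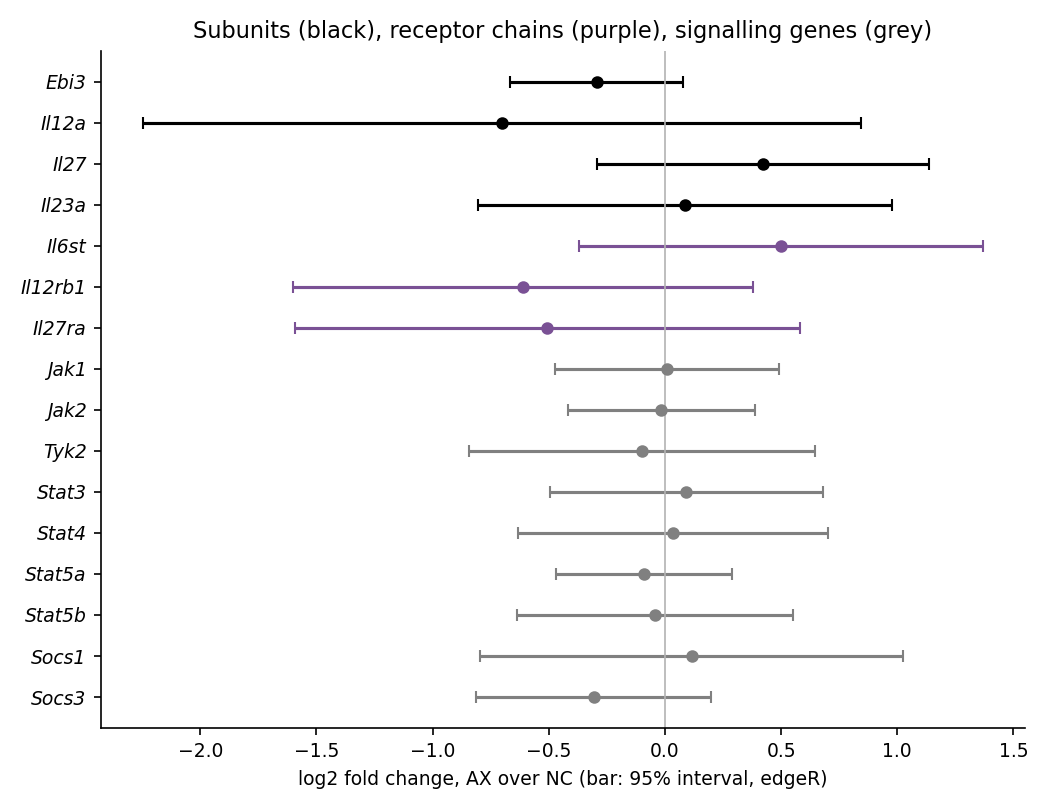
Log2 fold change, AX over NC, with 95% intervals derived from edgeR's F test, for the 4 tested subunits (black), the 3 tested receptor chains (purple) and 9 signalling genes (grey). Every interval shown crosses 0; that of Il12a is the widest among the subunits and that of Ebi3 the narrowest.

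Levels of different genes were compared per length, on the deposited FPKM scale (fragments scaled to gene length and library size). Ebi3 stood at 102 ± 20.6 FPKM in AX and 129 ± 17.03 FPKM in NC. Il27, the partner of Ebi3 in IL-27, stood at 4.79 ± 1.82 FPKM in AX and 3.81 ± 0.947 FPKM in NC. Ebi3 was above Il27 in 10 of 10 libraries, by 12.1 to 46.4 times with a median of 34.8. Il23a followed Il27 at 3.48 ± 1.33 FPKM in AX and 3.47 ± 1.57 FPKM in NC. Il27 exceeded Il23a in 7 of 10 libraries, so these neighbours did not separate beyond their spread. Il12a stood at 1.37 ± 1.13 FPKM in AX and 2.33 ± 1.86 FPKM in NC (SD, n = 5 each), and Il23a exceeded it in 9 of 10 libraries. Il12b was listed at 0 in 7 libraries and reached 0.281 FPKM in AX 6, 0.128 in AX 8 and 0.279 in NC 1; Il12a and Il23a were above it in all 10.

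The place of Il12a in that order depended on the gene length. The length behind its deposited FPKM was 4196 bases, where its longest coding transcript in GENCODE M21 has 1303 bases, and 4 further transcripts there are annotated as retaining introns. The lengths for Il23a (1359 bases), Il27 (1021) and Ebi3 (1170) differ by at most 16 bases from the longest coding transcript, while that of Il12b is 2810 against 1944 bases. Per length of the longest coding transcript, a scale chosen after the data were seen, Il12a came to 4.41 ± 3.65 in AX and 7.52 ± 5.99 in NC, exceeded Il27 in 5 of 10 libraries and exceeded Il23a in 6 of 10. Only the length was changed on that scale, not the counts. Any reads from outside the longest coding transcript stay in, so the values for Il12a and Il12b may be too high. On that scale too Ebi3 was above Il12a in 10 of 10 libraries, by 8.09 to 90.1 times, and Il12b stayed lowest in every library.

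**Figure D3:**
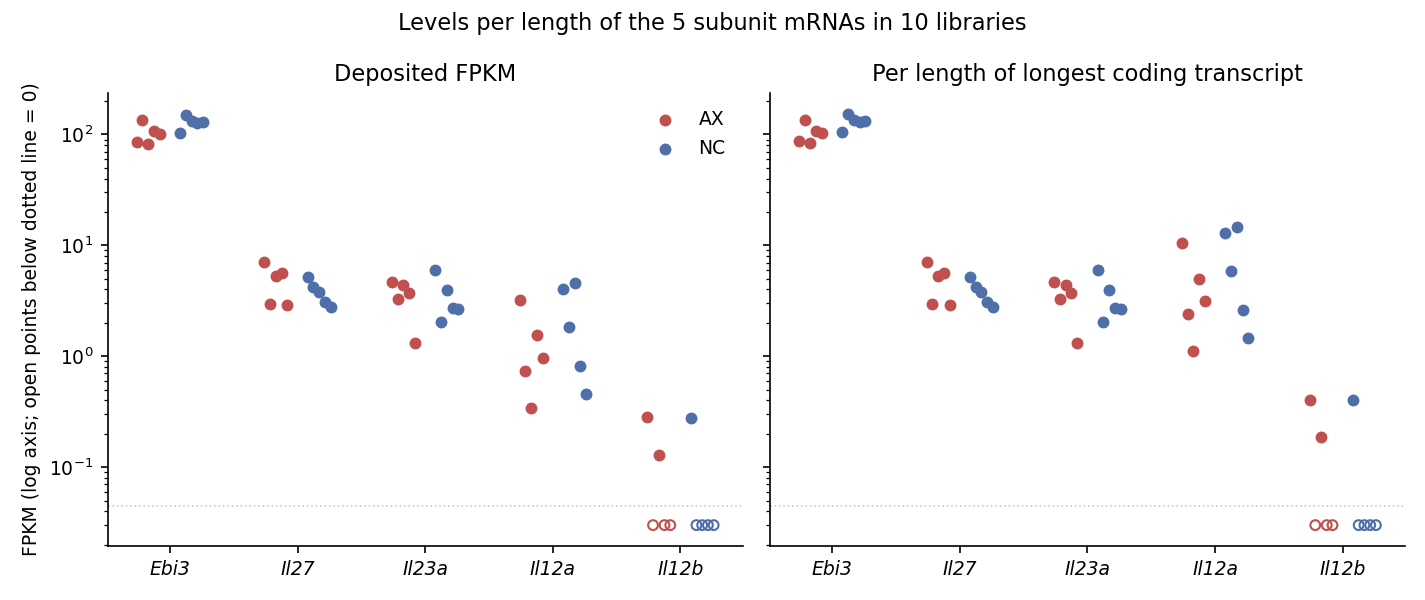
Levels of the 5 subunit mRNAs in each of the 10 libraries on a log axis, as deposited FPKM (left) and recomputed per length of the longest coding transcript (right); open points below the dotted line are values of 0. Ebi3 lies above the other 4 in every library on both scales, and Il12a moves from below Il27 to about its level. The counts are the same on both sides, so the right side may be too high for Il12a and Il12b.

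Ratios of subunits within a library do not depend on the library size. The count of Ebi3 over that of Il27, with 0.5 added to each, averaged 4.66 ± 0.797 on the log2 scale in AX and 5.28 ± 0.468 in NC (SD, n = 5 each). In linear terms it was 13.8, 51.0, 17.5, 21.4 and 39.5 in AX 6 to AX 10, against 22.6, 40.9, 39.3, 46.9 and 52.4 in NC 1 to NC 5. The 3 AX libraries AX 6, AX 8 and AX 9 lay below every NC library, and AX 7 and AX 10 lay among them. The difference of -0.62, AX minus NC, gave p = 0.159 by an exact two-sided permutation test and 0.635 after Benjamini-Hochberg adjustment over the 4 ratios. Ebi3 over Il12a, the IL-35 pair, averaged 4.73 ± 1.23 in AX and 4.41 ± 1.497 in NC on the same scale, a difference of 0.31 (exact permutation p = 0.730, adjusted 0.730). Il12b over Il12a and Il12b over Il23a had differences of 1.30 and 0.66 on the log2 scale (exact permutation p = 0.333 and 0.548, adjusted 0.667 and 0.730). Where Il12b had no count, these last values are set by the 0.5 added and by the partner's count. In the libraries with Il12b counts, Il12b stood to Il23a as 10 to 81 counts in AX 6, 4 to 66 in AX 8 and 8 to 83 in NC 1.

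Chains of 1 cytokine and chains of different cytokines were set against each other across libraries. Over the 10 libraries, 6 pairs of the 4 members with at least 10 counts everywhere were examined on the log2 CPM scale. Il27 and Ebi3, the chains of IL-27, ran in opposite directions: Pearson's r was -0.67 (permutation p = 0.0349, adjusted 0.105 over the 6 pairs) and Spearman's rho -0.56 (p = 0.0968, adjusted 0.247). Without the 2 libraries farthest from the median of Il27, AX 6 and AX 8, r was -0.52. Il23a and Il27, alpha chains of different cytokines, ran in the same direction, with r = 0.69 (permutation p = 0.0277, adjusted 0.105) and rho = 0.70 (p = 0.0302, adjusted 0.181). Without AX 10 and NC 2, the libraries farthest from the median of Il23a, r was 0.80. Without AX 6 and NC 1, chosen after seeing the data, r was 0.62 for Il23a and Il27 and -0.60 for Il27 and Ebi3. Neither relation passed the adjusted threshold. Within the groups, r was -0.82 in AX and -0.52 in NC for Il27 and Ebi3, and 0.80 in AX and 0.63 in NC for Il23a and Il27, each over 5 libraries and given without a test. The other 4 pairs had r from -0.38 to 0.40, with adjusted p from 0.411 to 0.812; for Il12a and Il27, r within NC was 0.95, within AX 0.43. No batch is given in the labels.

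**Figure D4:**
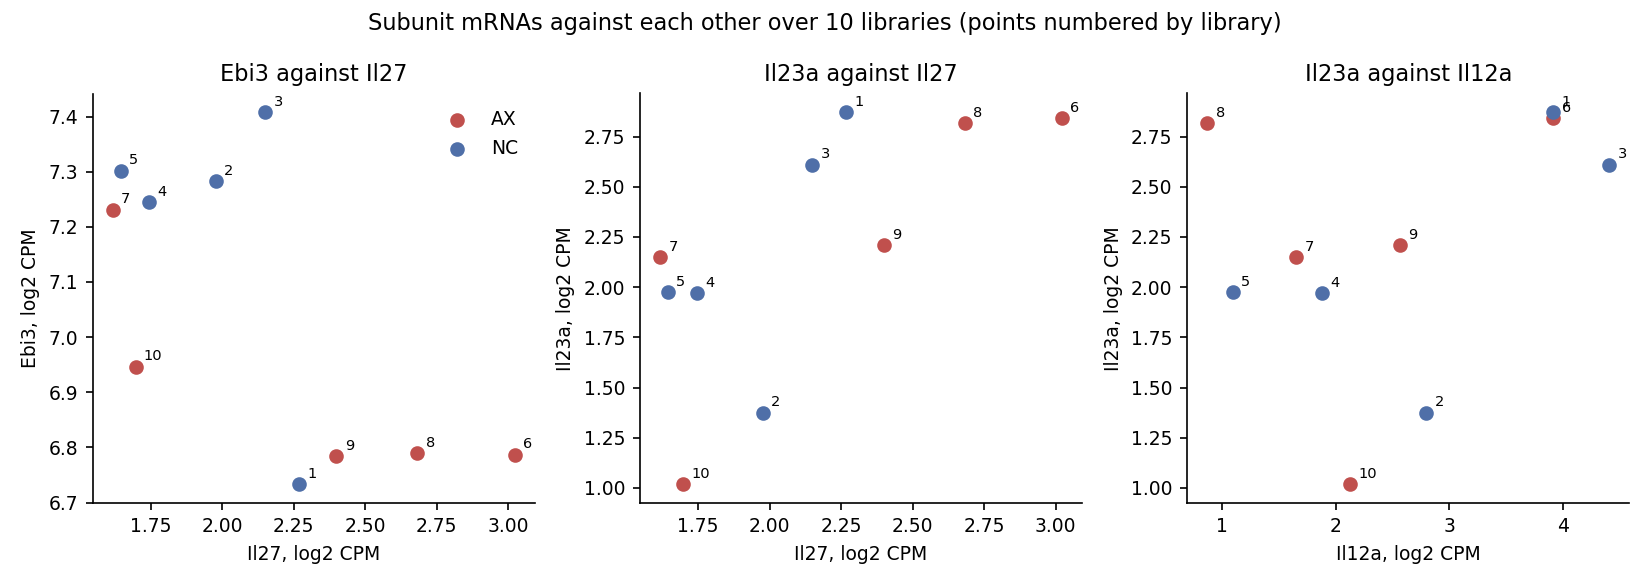
Log2 CPM of Ebi3 and of Il23a against Il27, and of Il23a against Il12a, in AX and NC libraries; numbers are libraries. AX 6, AX 8, AX 9 and NC 1 have the highest Il27 with the lowest Ebi3, while Il23a is high in AX 6, AX 8 and NC 1.

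A search for like patterns covered 7700 tested genes with a mean log2 CPM of at least 3. Left out were predicted genes (Gm numbers), Rik clones, genes named by codes of letters and numbers, and the subunits themselves. The genes whose pattern over the 10 libraries was most like each subunit were named by the highest r, as a description with no test. For Il23a these were the collagenase gene Mmp13 (r = 0.95), the costimulatory ligand gene Cd86 (0.95) and the nuclear receptor gene Rora (0.94). Mmp13 stood at 147, 33.1, 50.4, 18.4 and 4.21 CPM in AX 6 to AX 10, against 81.0, 7.61, 51.6, 18.4 and 27.1 CPM in NC 1 to NC 5, with AX 6 and NC 1 highest and AX 10 lowest. For Il12a they were Taf1 (r = 0.92), Cstb (0.91) and Gtf2b (0.90). For Il27 they were Uhrf1bp1 (r = 0.90), the tubulin gene Tuba1c (0.88) and Smad4, a mediator of TGF-beta signalling (0.87). For Ebi3 they were the V-ATPase subunit gene Atp6v0d1 (r = 0.93), Snrnp27 (0.93) and the pentose phosphate enzyme gene Taldo1 (0.93).

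The receptor chains that read these cytokines were mostly near the detection limit. Il12rb1, the chain shared by the IL-12 and IL-23 receptors, stood at 0.433, 1.69, 2.61, 1.25 and 1.21 CPM in AX 6 to AX 10, against 1.90, 2.56, 1.11, 2.04 and 3.32 CPM in NC 1 to NC 5. The groups overlapped, with AX 6 lowest and NC 5 highest, and the fitted change was -0.61 ± 0.45 on the log2 scale (SE). Il12rb2, the second IL-12 receptor chain, had 1 to 18 counts per library (0.853 ± 0.687 CPM in AX against 0.775 ± 0.261 CPM in NC). Il23r, specific to IL-23, had 0 to 7 counts (0.146 ± 0.152 CPM in AX against 0.294 ± 0.225 CPM in NC), and neither it nor Il12rb2 passed the filter. Il27ra, specific to IL-27, averaged 1.25 ± 0.575 CPM in AX against 1.78 ± 0.951 CPM in NC (-0.51 ± 0.49 on the log2 scale, SE). Il6st, which encodes gp130 and serves IL-27 and the IL-6 family alike, was the exception at 148 ± 38.8 CPM in AX against 105 ± 48.7 CPM in NC; NC 5 held 24.6 CPM, and the log2 fold change was 0.50 ± 0.40 (SE). Of the 5 chains 3 were tested and 0 passed (adjusted p = 0.9999 for each, edgeR).

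Genes that carry the signal onward, or that are known to control the subunit genes, gave no call either. Of 10 kinases, STATs and SOCS feedback inhibitors, 10 were tested, 0 passed, 5 had a higher and 5 a lower value in AX, and the median log2 fold change was 0.00. Socs3, a feedback inhibitor induced by STAT3, stood at 1225 ± 262 CPM in AX against 1514 ± 355 CPM in NC. Stat3, a transcription factor downstream of IL-23 and IL-27, stood at 454 ± 118 CPM in AX against 426 ± 144 CPM in NC, and Stat5a at 83.3 ± 14.8 CPM in AX against 88.7 ± 13.3 CPM in NC. Of 18 regulators of the subunit genes, all tested, 0 passed, with 9 values higher and 9 lower in AX and a median of -0.02. Fos, an AP-1 subunit, reached 1109 CPM in AX 6 and 103 to 265 CPM elsewhere. Irf1, an interferon-induced activator of Il12a and Il27, stood at 28.8, 109, 12.3, 16.4 and 14.7 CPM in AX 6 to AX 10, against 35.3, 12.7, 121, 22.3 and 189.7 CPM in NC 1 to NC 5, and its high libraries AX 7, NC 3 and NC 5 were in both groups. Irf3, the transcription factor that TBK1 phosphorylates, stood at 26.4 ± 5.03 CPM in AX against 33.7 ± 7.23 CPM in NC, and Batf at 135 ± 40.2 CPM in AX against 172 ± 27.0 CPM in NC.

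Of 10 genes known to respond to IL-12, 7 were tested and 0 passed (3 higher and 4 lower in AX, median log2 fold change -0.05). Ifng, which encodes interferon-gamma and was chosen after its values were seen, did not pass the filter. It stood at 3.55, 0.0806, 1.147, 0.328 and 0.162 CPM in AX 6 to AX 10, against 1.81, 0.0639, 0.279, 0.163 and 0.359 CPM in NC 1 to NC 5. Its 3 highest libraries were AX 6, AX 8 and NC 1, the libraries in which Il12b was counted. Cxcl9, a chemokine induced by interferon-gamma, was highest in the same libraries, at 9.002 CPM in AX 6, 4.59 in AX 8 and 4.40 in NC 1, with 0.512 to 3.34 CPM in the others. Other genes of the list had other libraries at the top. Cxcl10, named here after its values were seen, was highest in NC 5 (148 CPM), with 96.4 CPM in AX 6, 124 in AX 8 and 115 in NC 1. Tbx21, the T-bet transcription factor of cells that make interferon-gamma, averaged 0.802 ± 0.449 CPM in AX against 1.53 ± 0.695 CPM in NC and was highest in NC 5 and NC 1. Il18r1 averaged 10.5 ± 6.51 CPM in AX against 6.41 ± 2.01 CPM in NC and was highest in AX 6 and AX 7. Gzmb, a granzyme, averaged 6.15 ± 1.70 CPM in AX against 4.87 ± 1.48 CPM in NC and was highest in AX 8 and AX 9. The summed level of the 10 genes was 191 CPM in AX 6, 265 in AX 8 and 198 in NC 1, with a range of 183 to 278 CPM elsewhere.

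Of 8 genes of the IL-23 response, 5 were tested and 0 passed (4 higher and 1 lower in AX, median 0.42). Il17a stood at 22.9, 2.98, 7.61, 5.96 and 0.810 CPM in AX 6 to AX 10, against 15.8, 5.82, 2.69, 1.80 and 3.95 CPM in NC 1 to NC 5. AX 6, AX 8 and NC 1 were again the 3 highest, a coincidence with Il12b that was picked out after the values were seen and has no test. Il22 was highest in AX 8, AX 6 and NC 1, at 5.42, 4.24 and 4.14 CPM, and AX 9 followed at 3.01 CPM. Il17f reached 38.5 CPM in AX 6 and 0.163 to 8.54 CPM elsewhere. In AX 8 it stood at 4.69 CPM, below NC 1, AX 9 (6.29 CPM) and NC 3 (5.57 CPM). Csf2, named here after its values were seen, stood at 11.4 CPM in AX 6 and 14.1 in NC 1, but at 0.625 in AX 8. The summed level of the 8 genes was 168 CPM in AX 6, 128 in NC 1 and 123 in AX 8, with 54.5 to 134 CPM elsewhere. AX 6 and NC 1 also held the most mRNA of mesothelial cells, which line the peritoneum: all 8 listed markers were tested, 0 passed, 8 had a higher value in AX (median 1.02 on the log2 scale), and their summed level was 110.5 to 2463 CPM in AX against 113 to 1058 CPM in NC, highest in AX 6 and NC 1. The median sum was lower in AX, at 259 CPM (AX 8), against 279.9 CPM in NC. Msln, which encodes mesothelin, reached 819.7 CPM in AX 6 and 206 in NC 1, with 29.8 to 116 CPM elsewhere. The part of the mesothelial RNA in these values was not tested.

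Of 10 genes linked to IL-27, 8 were tested and 0 passed (3 higher and 5 lower in AX, median -0.14). Gbp2, a guanylate-binding protein gene induced by interferons, stood at 617 CPM in AX 6, 208 in AX 8 and 254 in NC 1, and at 45.1 to 126 CPM elsewhere. Prdm1, which encodes Blimp-1, stood at 15.99 ± 3.13 CPM in AX against 19.6 ± 3.44 CPM in NC. Il10 averaged 767 ± 377 CPM in AX against 997 ± 493 CPM in NC, and its highest library, NC 3 at 1875 CPM, was also the highest in Ebi3 and Il12a.

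**Figure D5:**
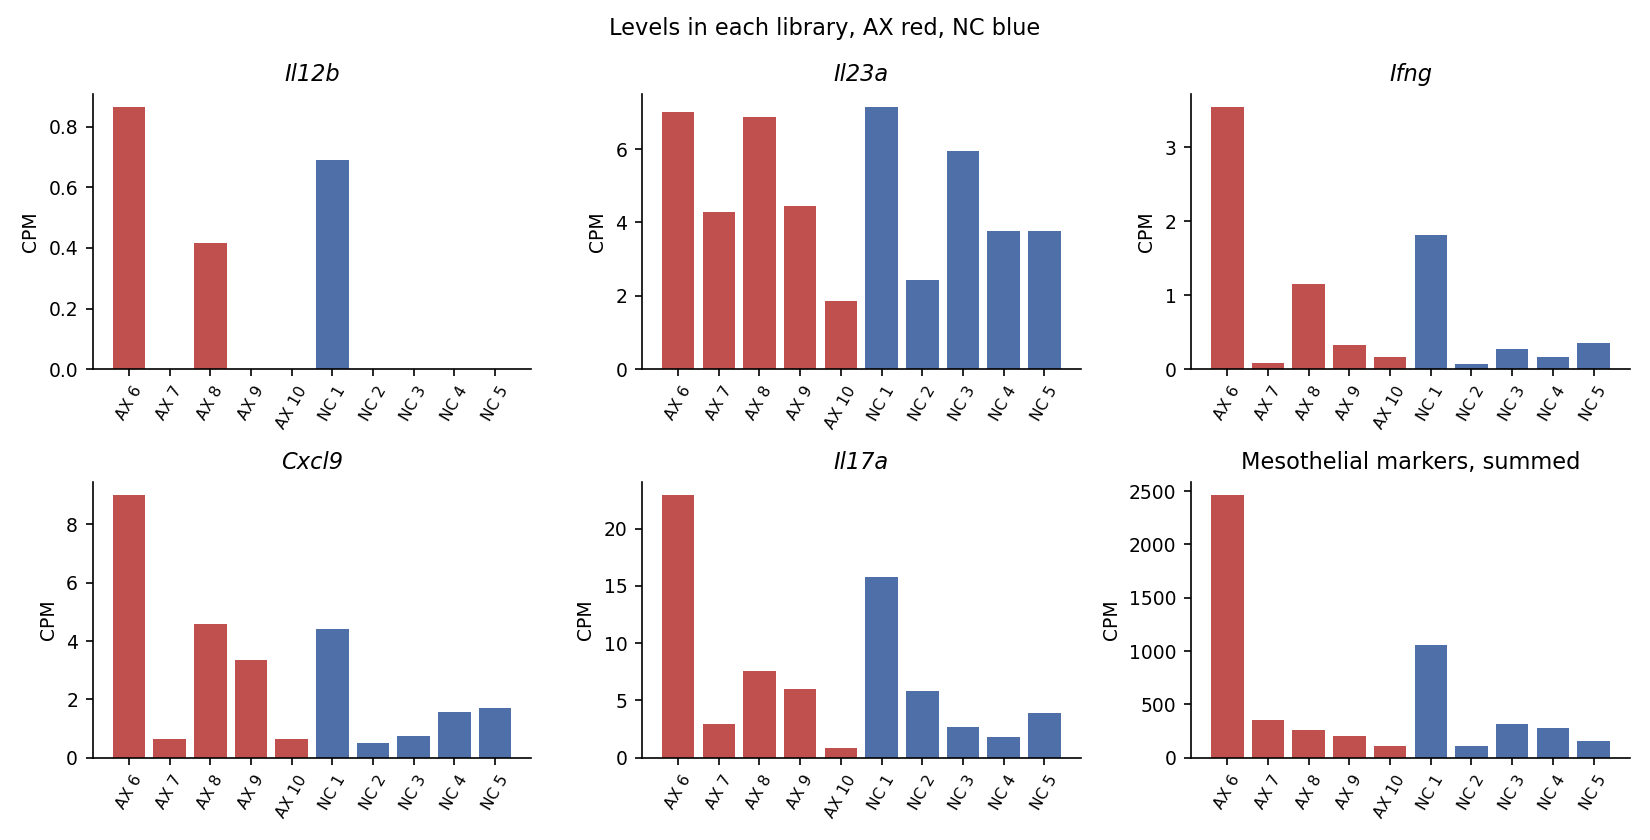
CPM in each library, AX then NC, of Il12b, Il23a, and Ifng, Cxcl9 and Il17a, which were picked for this plot after their values were seen, and the summed CPM of 8 mesothelial markers. Il12b has counts in AX 6, AX 8 and NC 1 only, where Ifng, Cxcl9 and Il17a are also highest; the mesothelial sum is high in AX 6 and NC 1 but not in AX 8.

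The labelled cell mixture was checked against marker genes of the usual sources of these subunits. Dendritic cell markers were sparse: Clec9a, Xcr1 and Itgae each had at most 0.464 CPM in any library, and the summed level of the 9 markers was 21.8 to 62.4 CPM in AX and 18.6 to 43.5 CPM in NC. Of the 9, 6 were tested and 0 passed (4 higher, 2 lower, median 0.27). Flt3, the growth factor receptor of these cells, averaged 2.58 ± 1.36 CPM in AX against 3.61 ± 2.60 CPM in NC; it was lowest in AX 6 (0.346 CPM) and stood at 1.64 CPM in NC 1. Clec10a was likewise lowest in AX 6 (1.64 CPM) and highest in AX 8 (15.6 CPM), while Cd209a (5.54 CPM) and Dpp4 (29.9 CPM) were highest in AX 6. Clec9a, Xcr1 and Itgae had no count in AX 6 or NC 1. Zbtb46, of the same list and named here after its values were seen, was highest there. It stood at 22.5 CPM in AX 6 and 20.3 in NC 1, with 3.01 to 6.13 CPM elsewhere. The summed level of the 9 markers was highest in AX 6 (62.4 CPM) and NC 1 (43.5 CPM), and AX 8 followed at 34.3 CPM. In AX 6 and NC 1 most of that sum came from Zbtb46 and Dpp4 (9.83 CPM in NC 1). Genes of mature dendritic cells were present at 260.2 to 464 CPM in sum in AX and 301 to 478 CPM in NC; all 9 were tested, 0 passed, and 3 were higher and 6 lower in AX (median -0.08). Relb, an NF-κB subunit gene, stood at 94.0 ± 20.7 CPM in AX against 107 ± 10.6 CPM in NC. Fscn1, which encodes the actin-bundling protein fascin, stood at 13.4, 29.8, 15.9, 25.2 and 40.7 CPM in AX 6 to AX 10, against 29.8, 34.3, 1.30, 59.5 and 72.1 CPM in NC 1 to NC 5. The chemokine gene Ccl22 was highest in AX 8 (122 CPM) and lowest in AX 6 (26.6 CPM), and Cd40 was highest in AX 6 (9.17 CPM) and NC 1 (7.41 CPM). Ccr7, named here after its values were seen, was highest in AX 6 (59.1 CPM), NC 1 (43.4 CPM) and AX 8 (41.2 CPM). Large peritoneal macrophage markers, 8 of 10 tested, had 7 values higher and 1 lower in AX (median 0.86, 0 passed), and their sum was 91.5 to 299 CPM in AX and 72.4 to 198 CPM in NC. The summed range of the neutrophil markers was 5769 to 11140 CPM (AX) against 5325 to 10317 CPM (NC), and that of the monocyte markers 3709 to 6628 CPM (AX) against 4060 to 8665 CPM (NC). The sums for T cells were 8.87 to 24.4 CPM (AX) against 8.79 to 25.2 CPM (NC). For natural killer cells they were 3.46 to 13.97 CPM (AX) against 2.93 to 17.2 CPM (NC). Sums over lists of different genes cannot be ranked between cell types and do not give cell numbers. The part of these cells in the subunit levels was not tested.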

How the data were processed

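Peritoneal lavage cells of 10 samples, 5 AX and 5 NC, were sequenced from poly(A) RNA, per the labels' protocols. Reads were aligned with HISAT2 2.0.4 to mouse mm10, per the submitters' processing notes. Which program counted the reads, with which annotation and strand setting, is not given in the sources used here. Deposited raw counts per gene are whole numbers, not normalised. How the authors made the deposited FPKM values is not described; for the members they match counts scaled by 1 length per gene and by each column's total. They were used for levels between genes and in alternatives.

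Counts were tested in R 4.3.3 with edgeR 4.0.16 over all genes: filterByExpr, TMM scaling, quasi-likelihood F test of AX against NC, Benjamini-Hochberg adjustment, threshold 0.05. CPM used TMM-scaled library sizes; totals were 10221170 to 13806885 counts. Log2 CPM used a prior count of 2. Subunit ratios and CPM were compared by exact permutation over samples, relations by 100000 permutations (Python 3.11.15, scipy 1.17.1; plots with matplotlib 3.10.9). Alternatives used DESeq2 1.42.0, limma 3.58.1, other scalings and filters, FPKM with pseudocounts of 1 and 0.1, and leaving out each library. If libraries did not come from separate animals, p-values reflect only the spread among these libraries, which may be technical.

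The members and gene lists were chosen with earlier results of these data known. Always named were the members and the receptor chains; in each list described, up to 4 genes with the smallest p, and defining markers near 0, and for each tested member the 3 genes of highest r. Apobr and Gm16712 were named as overlapping genes, and Ifng, Cxcl10, Csf2, Zbtb46 and Ccr7 after their values were seen. Some genes that this rule names are not reported here. Promoter sequences and motifs were read from RefSeq, GRCm38.p6.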

Additional observations from a re-analysis of the deposited data

Results flagged for a closer look

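In 118 groups of 5 values, from 55 genes and 4 ratios, 21 values stood apart from the other 4 of their group by Dixon's criterion, where chance gives about 1 in 20 groups of normally distributed values. Among the members, NC 1 stood apart in Ebi3 (106 CPM, below the other NC libraries) and in Il12b (0.690 CPM) and the log2 ratio of Il12b to Il23a (-3.30). The Il12b value meets the criterion by construction, since the other 4 NC libraries had no count and any single count would have met it; the ratio rests on the same counts. Among receptor and signalling genes, AX 8 stood apart in Il23r (0.417 CPM) and Stat3 (662 CPM). The Il23r value rests on 4 counts in AX 8 against 1 in each other AX library. AX 6 stood apart in Fos (1109 CPM), Il17f (38.5 CPM), Gbp2 (617 CPM) and Dpp4 (29.9 CPM), and in the mesothelial genes Msln (819.7 CPM), Upk3b (130.4 CPM), Lrrn4 (21.3 CPM) and Upk1b (42.1 CPM). NC 1 stood apart in Il17a (15.8 CPM). Single further values were Irf1 in AX 7 (109 CPM), Il10 in NC 3 (1875 CPM), Ccl22 in AX 8 (122 CPM) and Selp in AX 9 (15.7 CPM). Among the genes most like Ebi3, Atp6v0d1 (232 CPM) and Snrnp27 (56.6 CPM) stood apart in AX 7, and Snrnp27 in NC 1 (37.9 CPM).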

How the results depend on the processing

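Of 250 values under an alternative setting, 14 changed sign and 7 were counts that moved. The other 229 kept their direction and their side of the threshold, or stayed within 1.5 times of their count. No fold change, ratio or relation passed in the main run, so staying on that side says little. The size of a fold change, ratio or r was not judged in this tally. Il12a, Il27 and Ebi3 kept their sign under every alternative run; leaving out 1 library gave log2 fold changes from -1.38 to -0.20 for Il12a, 0.20 to 0.57 for Il27, -0.39 to -0.24 for Ebi3 and -0.0795 to 0.30 for Il23a. Il23a also turned to -0.0111 with limma on log2(FPKM + 0.1). Its values without AX 6, AX 8 and NC 2 were each -0.08. The called genes numbered 0 throughout, except 1 without NC 3, Rnf24, which is no member; NC 3 held 0.186 CPM of it, against 4.09 to 27.3 CPM in the other NC libraries. Counts at an unadjusted p under 0.05 were 193 with DESeq2, 313 with no filter, 380 with limma-voom and quality weights, 318 without AX 6 and NC 1 together (chosen after seeing the data), and 99 to 433 on leaving out 1 library, beside 113; the cause was not tested. The difference in Ebi3 to Il12a ranged from -0.0811 to 0.78 on leaving out 1 library, turning below 0 without AX 8, NC 1 or NC 3, that in Ebi3 to Il27 from -0.87 to -0.40, that in Il12b to Il12a from 0.45 to 1.86 and that in Il12b to Il23a from 0.08 to 1.31. The mean difference in Il12b ranged from -0.0337 to 0.257 CPM. Pearson's r of Il12a and Ebi3 was 0.0523 with plain library sizes, 0.40 without AX 6 and NC 1, and -0.46 to 0.10 on leaving out 1 library; that of Il12a and Il23a was -0.00157 without AX 6 and NC 1. No fold change of Il12b is given under any setting. Il12b did not pass the filter of the main fit, and its value in the run with no filter on low counts was not kept. No paired analysis was possible because the groups share no replicate numbers. Counts of 0 to 10 for Il12b, 0 to 7 for Il23r and 5 to 40 for Il12rb1 limit what can be said of these genes.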
